A study of Mus musculus with 12 samples.

Results

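The growth hormone and IGF axis was followed through 10 genes, namely Ghr, Stat5a, Stat5b, Socs2, Cish, Igf1, Igfals, Igfbp1, Igfbp2 and Igfbp3. They were taken by symbol from the transcript clusters that carry exactly 1 gene symbol. All 10 were measured, through 11 of the 35556 transcript clusters, since Socs2 had 2. Expression was measured in mouse tissue on 12 Affymetrix arrays, 2 in each of 6 groups named by their titles. Group 42Y came from KK-Ay mice at 42 weeks and group 42WKK from KK mice at 42 weeks. KK-Ay mice carry the A-y allele of agouti on the KK background and develop obesity and type 2 diabetes (T2D), and KK mice lack the allele. The series' design text lists 6Y, 16Y and 42Y as T2D and 6K, 42WKK and 1 as control. The sample records go against it for 6K, which they call T2D, and for 42Y, which they call control. The design text's listing was used here. No source used here gives the age behind the title numbers 6, 16 and 1, the strain of group 1, or the sex of the mice, and none says that each array came from a separate mouse. The p-values therefore measure only the spread between these arrays, which may be technical.

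The records name blood as the tissue, while the methods name liver. The median log2 signal of the hepatocyte markers lay between 13.0 and 13.29 over the 12 arrays, and that of the T cell markers between 4.08 and 4.35. Agouti (a) read 6.78 to 7.06 in the 6 arrays with Y in their title and 5.20 to 5.51 in the 6 others, the 6K arrays included. Xist lay between 2.29 and 2.91 and the Y-linked Eif2s3y between 7.19 and 7.94 on every array. The 2 arrays of a group correlated at 0.983 to 0.991 over all clusters.

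Growth hormone from the pituitary binds its receptor on hepatocytes, and the attached kinase JAK2 phosphorylates STAT5A and STAT5B, which enter the nucleus and switch on target genes. Among these are Igf1, whose product carries much of the hormone's growth effect through the blood, Igfals, and the feedback inhibitors Socs2 and Cish. Circulating IGF1 is held by binding proteins. IGFBP3 and the acid labile subunit, the product of Igfals, form the long-lived complex that carries most of it, while IGFBP1 and IGFBP2 form smaller complexes and Igfbp1 is repressed by insulin.

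A pair of promoters is shown because Cish had the largest fitted difference of the members between 42Y and 42WKK, and Igfbp1 the largest of the binding proteins. Both windows run from 250 bases before to 50 bases after the start of transcription, 5′ to 3′ on the plus strand, in RefSeq sequence of GRCm38.p6. The window of Cish is chr9:107296409-107296708, and its capitals mark both matches of TTCNNNGAA, the motif of STAT5. The window of Igfbp1 is chr11:7197537-7197836, and its capitals mark the match of CAAAACA, the core of the insulin response motif.
Cish: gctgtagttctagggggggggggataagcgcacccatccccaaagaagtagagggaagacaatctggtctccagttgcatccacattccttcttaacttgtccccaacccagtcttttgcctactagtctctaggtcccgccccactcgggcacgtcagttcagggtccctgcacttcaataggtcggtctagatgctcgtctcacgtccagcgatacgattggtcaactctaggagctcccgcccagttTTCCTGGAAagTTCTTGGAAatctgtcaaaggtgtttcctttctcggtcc
Igfbp1: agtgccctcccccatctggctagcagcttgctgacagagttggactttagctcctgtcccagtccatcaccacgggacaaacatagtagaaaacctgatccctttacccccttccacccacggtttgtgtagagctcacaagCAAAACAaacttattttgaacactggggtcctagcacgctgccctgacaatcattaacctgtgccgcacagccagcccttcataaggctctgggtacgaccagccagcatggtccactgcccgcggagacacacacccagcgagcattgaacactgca
The matches in Cish, TTCCTGGAA and TTCTTGGAA, began at positions 1 and 12 from the start site, and the match in Igfbp1 at position -108. Both motifs were searched on both strands, and their matches did not overlap. Of 32851 mouse promoter windows of this length, 8.3% held TTCNNNGAA at least once and 0.46% held it 2 or more times, while 6.3% held CAAAACA. Of the other members with windows, Igfals held 1 match of TTCNNNGAA in 2 of its 3 windows, and the remaining windows held no match of either motif. RefSeq windows were matched for 9 of the 10 members, all but Socs2.

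Values are log2 signals, so a difference of 1 is a factor of 2, and signals of different genes cannot be set against each other. Differences were fitted with limma over all 12 arrays, and called where the adjusted p over all clusters was under 0.05. Across 7 comparisons, 4 of 70 pairs of a member and a comparison were called, 3 of them Igfbp3 and 1 Igfals, all lower. No member was called between Y-titled and other arrays.

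**Figure D1:**
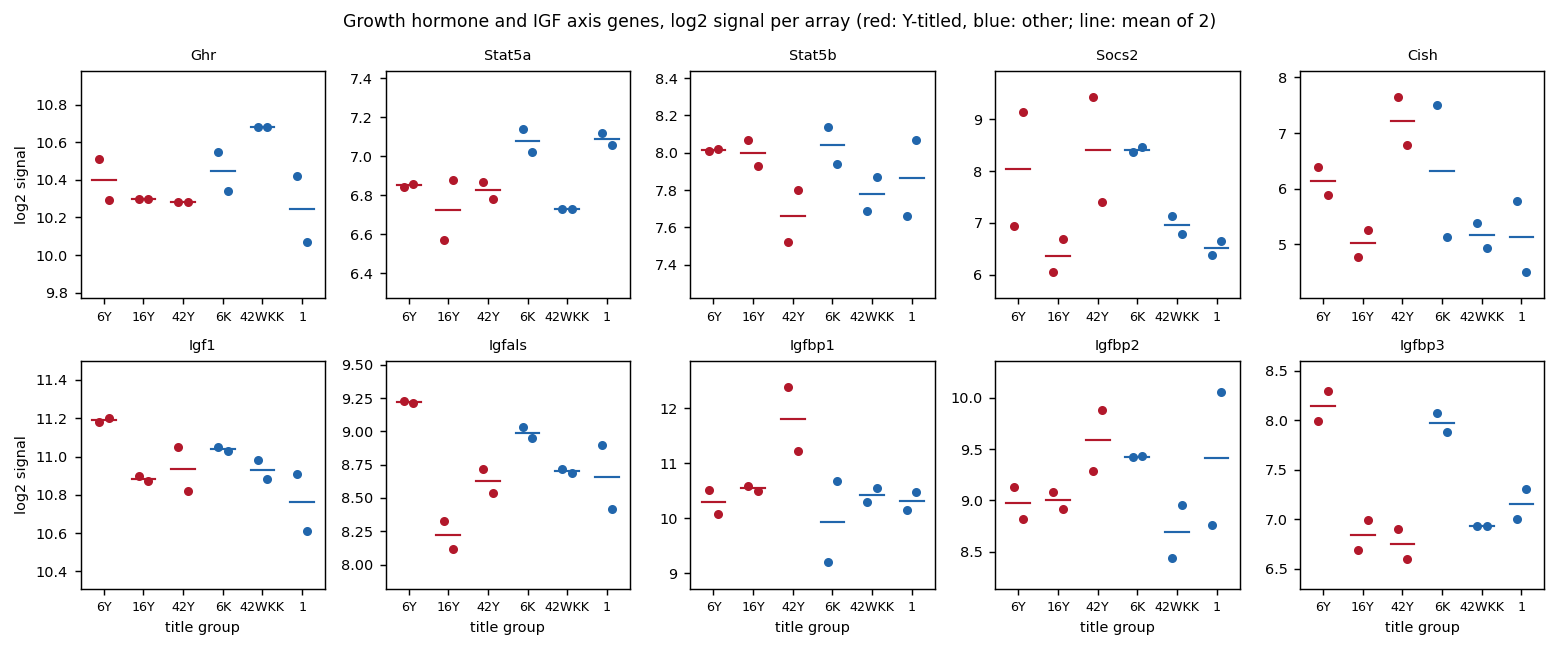
Log2 signal (y axis, a separate scale per gene) of the 10 genes on each array, by title group (x axis), with Y-titled groups in red, other groups in blue and a line at the mean of the 2 arrays. Igfbp3 lay at 7.99 and 8.30 in 6Y and at 8.07 and 7.88 in 6K, above the other 8 arrays, while Socs2 and Cish spread widely within groups.

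Ghr, the receptor, was among the steadier members, with a range of 0.61 over the 12 arrays. It read 10.28 on both 42Y arrays, against 10.68 on both 42WKK arrays. The 42Y arrays lay below the 42WKK arrays, as was so for 22.7% of all clusters, by -0.40 (SE 0.14), but the adjusted p was 0.19 in limma. The interaction with the 6Y and 6K pair was not called either (-0.36, adjusted p = 0.476). Ghr read 10.51 and 10.29 in 6Y, against 10.55 and 10.34 in 6K.

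The transducers Stat5a and Stat5b moved little. Stat5a ranged over 0.57 and Stat5b over 0.61 on the log2 scale. Stat5a read 6.87 and 6.78 in 42Y, against 6.73 and 6.73 in 42WKK, a difference of 0.10 (95% interval -0.17 to 0.37). Stat5b read 7.52 and 7.80 in 42Y, against 7.69 and 7.87 in 42WKK, and these overlapped. Stat5a was lower by 0.35 in 42WKK than in 6K at an adjusted p of 0.211 in limma, so this difference was not called.

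Socs2 and Cish, the feedback inhibitors that the pathway itself induces, varied most among the members within groups, each taken by its cluster of highest mean. The SD within groups was 0.89 for Socs2 and 0.85 for Cish, against 0.11 for Igf1 and 0.10 for Stat5a. Only 0.2% of all clusters had a larger SD than Socs2 over the 12 arrays, and 0.4% a larger one than Cish. Socs2 read 9.43 and 7.40 in 42Y, against 7.13 and 6.78 in 42WKK. The 42Y arrays lay above the 42WKK arrays, as was so for 25.1% of all clusters, and one of them by little. The difference of 1.46 (SE 0.75, adjusted p = 0.366 in limma) was not called. It was 0.44 without 42Y replicate 1. The 6Y arrays, at 6.94 and 9.13, were as far apart as the 42Y arrays, and 6K read 8.36 and 8.47. Socs2 was low in 16Y (6.05 and 6.68) and in group 1 (6.37 and 6.64). The second Socs2 cluster followed the first with r = 0.987 over the 12 arrays, but spread less. Its SD within groups was 0.41, below 0.56 for Igfbp1 and 0.45 for Igfbp2. Of all clusters, 6.4% had a larger SD over the 12 arrays.

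Cish read 7.65 and 6.79 in 42Y, against 5.39 and 4.94 in 42WKK. Both 42Y arrays lay above both 42WKK arrays, as was so for 25.1% of all clusters in this comparison. The difference of 2.06 (SE 0.72, unadjusted p = 0.0194) had an adjusted p of 0.194 in limma. Without 42Y replicate 1 it was 1.62. The spread elsewhere was as wide, with 7.51 and 5.13 in 6K and 5.77 and 4.50 in group 1. Cish and Socs2 correlated at r = 0.62 over the 12 arrays, and in 3 of 6 groups the same array was the higher one for both.

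Igf1, the secreted ligand, held a narrow range of 10.61 to 11.20. It read 11.05 and 10.82 in 42Y, against 10.98 and 10.88 in 42WKK. These overlapped, and the difference was 0.004 (95% interval -0.28 to 0.29). In the Y-titled groups it read 11.18 and 11.20 in 6Y, 10.90 and 10.87 in 16Y, and 11.05 and 10.82 in 42Y. The 16Y arrays lay below the 6Y arrays, as was so for 21.6% of all clusters. The difference of -0.31 (adjusted p = 0.242 in limma) was not called.

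Igfals, the acid labile subunit that stabilises circulating IGF1, was lower in 16Y than in 6Y. It read 8.33 and 8.12 in 16Y, against 9.23 and 9.21 in 6Y. The groups did not overlap, as was so in this direction for 21.6% of clusters, and the difference was -0.998 (SE 0.16, adjusted p = 0.0316 in limma). Here 2 of 10 members were called, both lower, against a background of 1.78% of clusters called and 1.2% called lower. The call was lost, at adjusted p from 0.0548 to 0.132, when either array of 16Y, 6Y, 42WKK or 6K was left out. In 42Y, at 8.72 and 8.54, Igfals also lay below 6Y, by -0.59, without being called (adjusted p = 0.113). Over the 12 arrays Igfals followed Igf1 with r = 0.78 and Igfbp3 with r = 0.76, where the points share 6 groups of 2 arrays.

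Igfbp3, which carries IGF1 in the same complex, was high in both groups numbered 6. Its signal was 7.99 and 8.30 in 6Y, 6.69 and 6.99 in 16Y, and 6.90 and 6.60 in 42Y. It read 8.07 and 7.88 in 6K, 6.93 on both 42WKK arrays, and 7.00 and 7.31 in group 1. No array outside the groups numbered 6 came above 7.31, and no array in them below 7.88. The share of all clusters that split the arrays this way was not counted, so how unusual the split is cannot be said.

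Igfbp3 was lower in 16Y than in 6Y by -1.30 (SE 0.18, adjusted p = 0.0243 in limma), a factor of 2.46. It was lower in 42Y than in 6Y by -1.39 (SE 0.18, adjusted p = 0.0103), where 1 of 10 members was called against a background of 1.83%, and 1.04% called lower. It was also lower in 42WKK than in 6K by -1.05 (SE 0.18, adjusted p = 0.0379), again 1 of 10 members, against a background of 1.01%, and 0.458% called lower. Between Y-titled and other arrays of the same title number Igfbp3 was not called. It differed by -0.18 in 42Y against 42WKK and by 0.17 in 6Y against 6K, at adjusted p of 0.661 and 0.953. The comparisons of 16Y and of 42Y share the 6Y arrays. Without 6Y replicate 2 the difference of 42Y from 6Y was -1.24 (adjusted p = 0.062). The call of 16Y against 6Y was lost, at adjusted p from 0.0553 to 0.119, without either array of 16Y, 6Y or 42WKK. That of 42WKK against 6K was lost, at 0.0525 to 0.196, without either array of 42WKK, 6K, 6Y or 16Y.

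Igfbp3 is made in liver mainly by cells other than hepatocytes, and the medians of stellate and endothelial markers were also higher in the arrays numbered 6. The median of the 8 stellate cell and fibroblast markers lay between 6.83 and 7.35 in the arrays numbered 6 and between 5.99 and 6.42 in the other 8. That of the 8 endothelial markers lay between 7.50 and 7.96 in the arrays numbered 6 and between 6.68 and 7.45 in the other 8. Of the single markers, only Col1a1, Col1a2, Col3a1 and the endothelial Tek read higher on every array numbered 6 than on all others. Tek did so narrowly, with 6.11 to 6.63 against 5.23 to 6.09. The remaining markers of both lists overlapped, such as Lrat with 7.08 to 7.63 against 6.18 to 8.11. The log2 of the summed stellate signal overlapped, with 10.51 to 11.17 in the arrays numbered 6 and 10.07 to 10.60 in the others. That of the summed endothelial signal overlapped too, with 10.68 to 11.21 and 9.74 to 10.69. The median of the 8 Kupffer cell and macrophage markers also overlapped, with 6.54 to 7.46 in the arrays numbered 6 and 6.03 to 6.99 in the others. In 16Y against 6Y all 8 endothelial and all 8 stellate markers lay lower by their means, where 43.9% of all clusters did. Of these, 3 endothelial markers, Kdr (-0.98), Clec4g (-1.20) and Lyve1 (-1.36), and 1 stellate marker, Col3a1 (-1.17), were called. In 42Y against 6Y all 8 of both lists again lay lower, against 49.6% of all clusters, and the stellate collagen genes Col3a1 (-1.44), Col1a2 (-1.08) and Col1a1 (-0.86) and no endothelial marker were called. In 42WKK against 6K, where Igfbp3 was called too, no marker of either list was called. There 8 endothelial and 6 stellate markers lay lower, against 53.4% of all clusters, with Lrat (0.29) and Dcn (0.02) higher by their means. Of these marker calls, Col3a1 in 42Y against 6Y was kept whichever array was left out. The others were lost with some single arrays left out, at adjusted p from 0.0505 to 0.203, for Kdr with any array of 16Y, 6Y, 42WKK or 6K, and for Clec4g and Lyve1 also with any of group 1. For Col3a1 in 16Y against 6Y it was lost with any array of 16Y, 42WKK, 6K or group 1 or with 6Y replicate 2. In 42Y against 6Y, Col1a2 was lost with any array of 42Y or 42WKK or 6Y replicate 2, and Col1a1 with any array but 6Y replicate 1. The median of the clock genes differed too, with 6.13 to 6.41 in the arrays numbered 6 and 6.92 to 7.92 in the others. Nfil3, Per1, Nr1d1, Nr1d2 and Tef read lower on every array numbered 6 than on all others. The remaining clock genes overlapped, such as Arntl with 7.54 to 7.69 against 5.62 to 7.74. The part of these cells and of the clock in the Igfbp3 values was not tested. In bulk tissue, fewer cells of a type and less RNA per cell cannot be told apart.

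**Figure D2:**
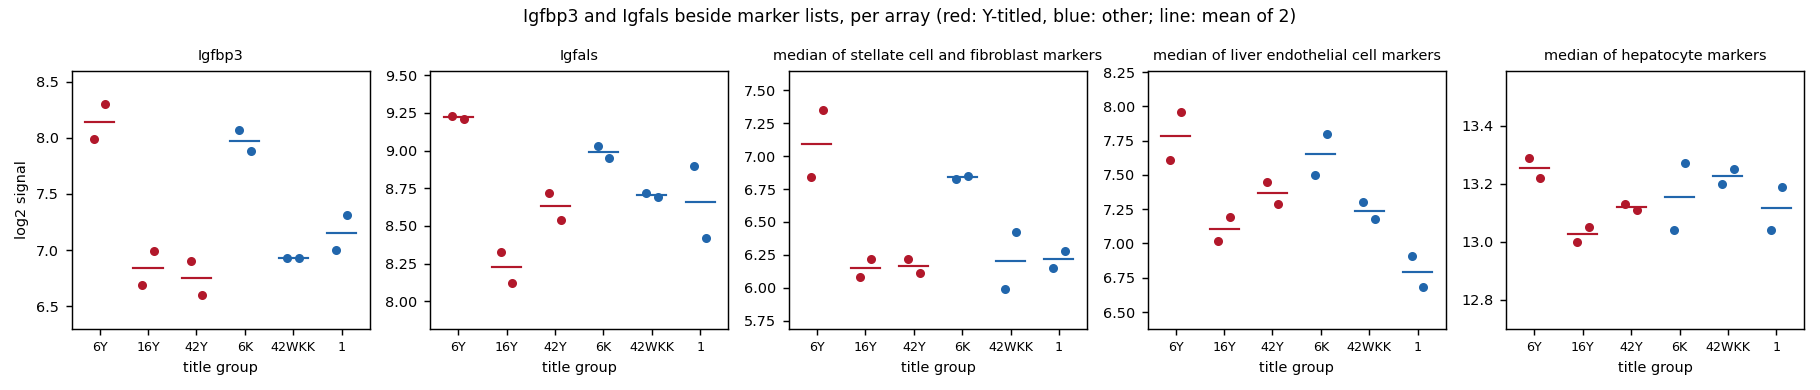
Log2 signal of Igfbp3 and Igfals and the median log2 signal of 3 marker lists (y axes, separate scales) on each array, by title group (x axis), with Y-titled groups in red, other groups in blue and a line at the mean of the 2 arrays. Igfbp3 and the stellate median are both high in 6Y and 6K, where the stellate median lies between 6.83 and 7.35, and the hepatocyte median stays between 13.0 and 13.29.

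Igfbp1, the insulin-repressed binding protein, read 12.38 and 11.22 in 42Y, against 10.30 and 10.55 in 42WKK. Both 42Y arrays lay above the other 10 arrays, which ranged up to 10.67, and the share of all clusters that did so was not counted. By the looser rule of both 42Y arrays above both 42WKK arrays, the share was 25.1% of all clusters. The difference of 1.37 (95% interval 0.28 to 2.46, unadjusted p = 0.0196), a factor of 2.59, had an adjusted p of 0.195 in limma and was not called. Without 42Y replicate 1 it was 0.79. Against 6Y, which read 10.51 and 10.08, the difference was 1.502 (adjusted p = 0.171), and 0.923 without 42Y replicate 1.

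Igfbp2 read 9.29 and 9.88 in 42Y, against 8.44 and 8.95 in 42WKK. The groups did not overlap, as was so in this direction for 25.1% of all clusters. The difference of 0.89 (SE 0.38, adjusted p = 0.283 in limma) was not called. The highest array was in group 1, which read 8.76 and 10.06, and 6K read 9.42 and 9.43. In all, 0 of 10 members were called in 42Y against 42WKK, where the background was 1.85%. At an unadjusted p under 0.05 there were 4, namely Cish, Ghr, Igfbp1 and Igfbp2, where 17.3% of all clusters passed. Socs2 was counted by its cluster of highest mean. Its second cluster also passed (0.82, unadjusted p = 0.0467, adjusted p = 0.281 in limma). The median difference was 0.05 over the members and 0.02 over all clusters.

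The remaining comparisons called no member. The backgrounds were 0.00281% in 6Y against 6K, 0.208% in Y-titled against other arrays and 0.143% in the interaction. At an unadjusted p under 0.05, limma gave 0 members in 6Y against 6K, 2 in Y-titled against other arrays and 1 in the interaction, where 5.28%, 12.3% and 13.2% of all clusters passed. In the Y-titled arrays Igfbp1 had a median of 10.54 and a range of 10.08 to 12.38, against other arrays with 10.39 and 9.20 to 10.67, and the fitted difference was 0.65 (adjusted p = 0.39). Stat5a was lower in the Y-titled arrays by -0.17 at an adjusted p of 0.379, which was not called.

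**Figure D3:**
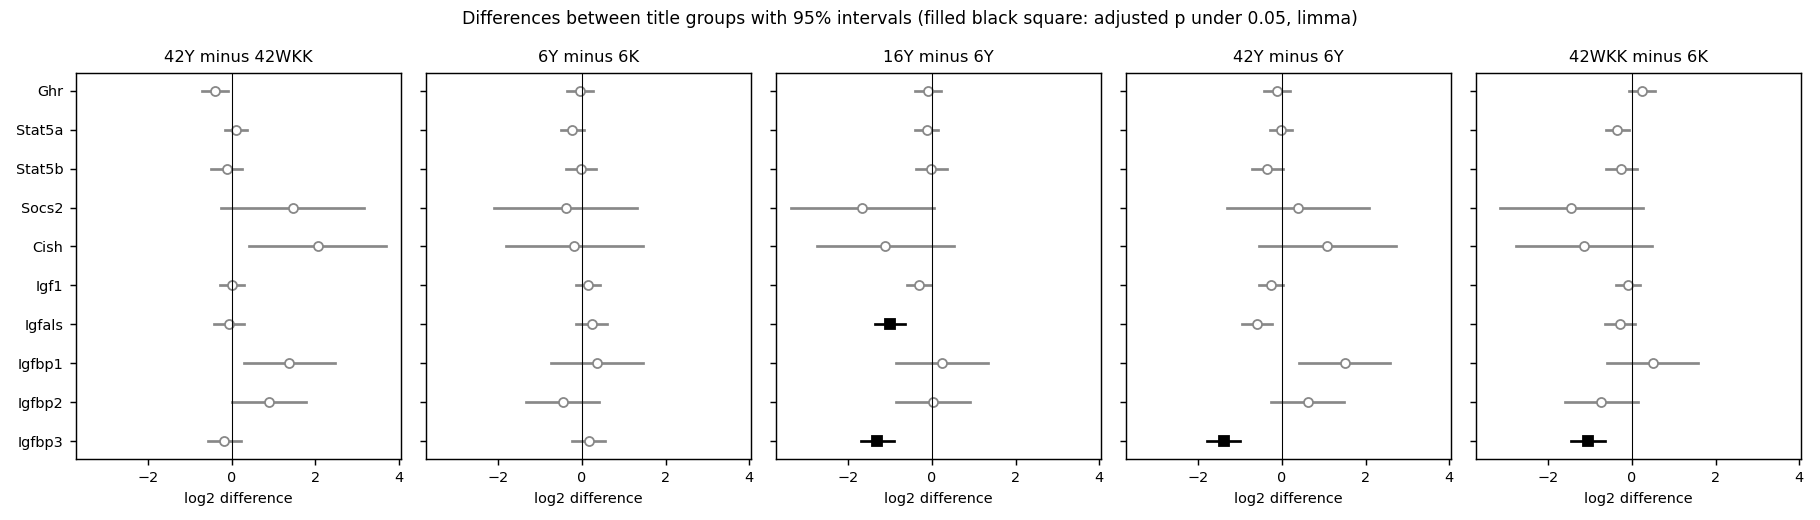
Log2 differences (x axis) of the 10 genes (rows) in 5 comparisons, as points with 95% intervals from limma, where filled black squares mark adjusted p under 0.05. The 4 filled squares are Igfbp3 in 3 comparisons and Igfals in 16Y minus 6Y, all below 0.

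A list of 30 other pathway genes covered the remaining receptors, kinases, adaptors and inhibitors, and 28 were measured, 9 of them with a mean below 4.74, the lowest array median. In 42Y against 42WKK, 3 rose, 1 fell and 24 were not called. Socs3, an inhibitor of cytokine receptors that interleukin 6 induces through STAT3, read 8.42 and 7.14 in 42Y, against 5.02 and 5.61 in 42WKK, a rise of 2.47 (SE 0.39, adjusted p = 0.0259 in limma). Stat3 read 10.02 and 9.87 in 42Y, against 9.05 and 9.09 in 42WKK (0.88, adjusted p = 0.04). Both were above their 42WKK levels on each 42Y array, as was so for 25.1% of all clusters. Ptpn1, a phosphatase that acts on JAK2 and the insulin receptor, read 8.22 and 7.82 in 42Y, against 7.10 and 6.76 in 42WKK (1.09, adjusted p = 0.0442). Irs1, the adaptor of the insulin and IGF1 receptors, read 6.88 and 6.89 in 42Y, against 7.50 and 7.80 in 42WKK (-0.76, adjusted p = 0.0324). Jak2, at 6.96 and 6.90 in 42Y and 6.91 and 6.77 in 42WKK, was not called. In 42Y against 6Y only Socs3 of the 28 was called (2.21, adjusted p = 0.0327), and in the other 5 comparisons none was. Of the calls of members, pathway genes, targets, insulin-responsive and clock genes and endothelial, stellate and neutrophil markers, 66 were refitted on only the arrays compared, and 2 were kept, Nr1d1 in 42Y against 6Y (adjusted p = 0.0461 in limma) and Arntl in the interaction (adjusted p = 0.0436).

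Each call of the other pathway genes was lost when some single arrays were left out. For Socs3 in 42Y against 42WKK, adjusted p was 0.0515 without 42Y replicate 1 and 0.104 to 0.17 without either 42WKK array, and in 42Y against 6Y it was 0.0511 to 0.163 without any array of 6Y, 16Y, 42WKK or group 1, or 42Y replicate 1. For Irs1 it was 0.0505 to 0.198 without any array of 42Y, 42WKK, 16Y or group 1. For Stat3 it was 0.0601 to 0.205 without any array of 42Y, 42WKK, 16Y or 6K. For Ptpn1 it was 0.0529 to 0.243 without any of the 12 arrays. Of the neutrophil markers, Retnlg was also higher in 42Y, at 5.23 and 5.62, against 3.51 and 3.54 in 42WKK (1.90, adjusted p = 0.00441). The median of the 6 neutrophil markers was 4.79 to 5.54 in 42Y and 4.0 to 4.04 in 42WKK, and its part in these values was not tested. Of the 6, 4 had a mean below 4.74, the lowest array median, and Retnlg was among them at 4.11. Without 42WKK replicate A the Retnlg call had an adjusted p of 0.0509.

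The clock genes moved in the same comparison. In 42Y against 42WKK 5 of 14 measured rose and 3 fell, and 12 of 14 had an unadjusted p under 0.05, against 17.3% of all clusters. Arntl, the activator at the core of the clock, read 5.62 and 5.67 in 42Y, against 7.74 and 7.64 in 42WKK (-2.04, adjusted p = 0.000292 in limma). It was also called in the interaction with the 6Y and 6K pair (-1.97, adjusted p = 0.00357), and both calls were kept whichever array was left out. The 42Y arrays held its 2 lowest readings of the 12. Dbp, a clock output gene, read 7.81 and 9.01 in 42Y, against 6.10 and 6.01 in 42WKK (2.36, adjusted p = 0.0186), with 0.119 and 0.126 without either 42WKK array. Nr1d1, a clock repressor, read 10.47 and 10.21 in 42Y, against 6.96 and 8.41 in 42WKK (2.65, adjusted p = 0.032), with 0.0529 to 0.135 without 42WKK replicate A or any array of 42Y, 6Y or group 1. The part of the clock in the 42Y values of the members, of the other pathway genes, of the growth hormone targets and of the insulin-responsive genes was not tested.

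**Figure D4:**
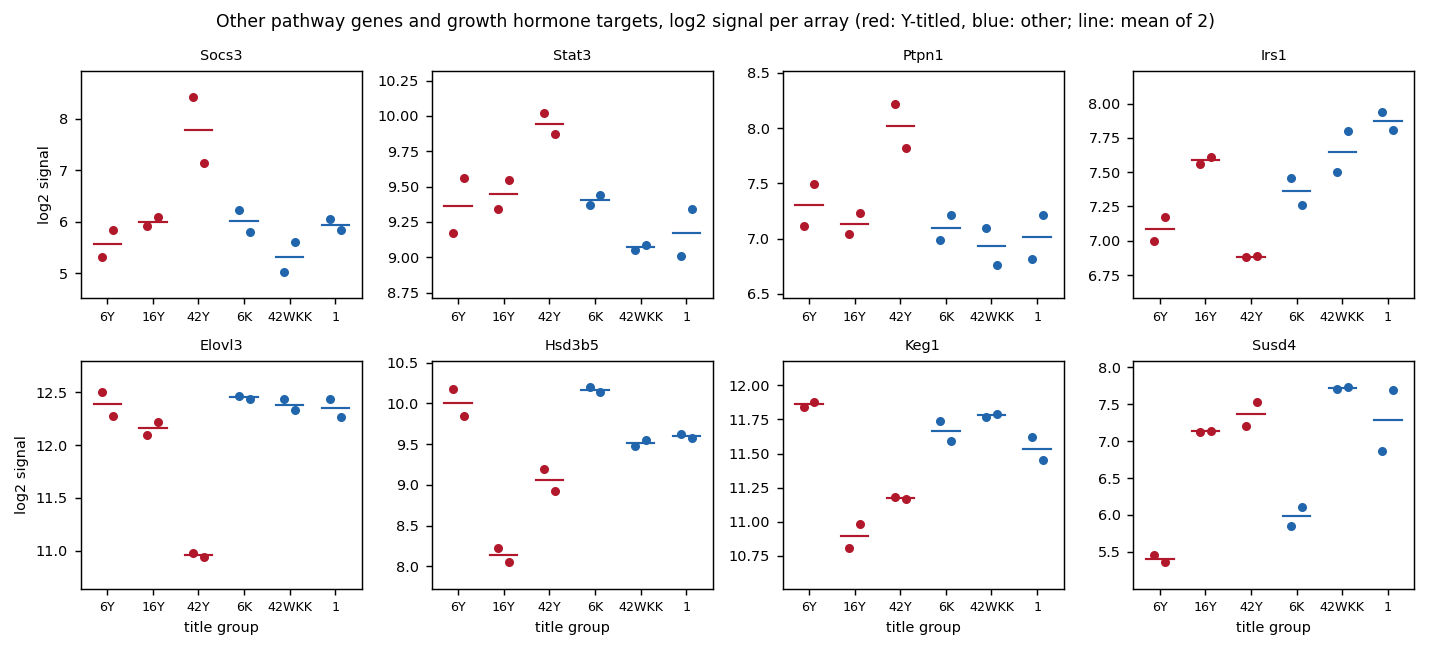
Log2 signal (y axis, a separate scale per gene) of 4 other pathway genes (upper row) and 4 male-biased growth hormone targets (lower row) on each array, by title group (x axis), with Y-titled groups in red, other groups in blue and a line at the mean of the 2 arrays. Elovl3 is low in 42Y alone (10.98 and 10.94), and Hsd3b5 is lowest in 16Y (8.22 and 8.05).

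In male mice, growth hormone arrives in pulses, and pulses through STAT5B keep a set of male-biased liver genes on and female-biased genes low. Of 20 male-biased genes listed, 18 were measured, and 14 of 20 female-biased genes. In 42Y against 42WKK, 1 male-biased gene rose and 2 fell. By their means 15 lay lower, against 47.4% of all clusters, and the median was -0.27, against 0.02 over all clusters. Of the female-biased genes 7 lay higher and 7 lower, with a median of 0.02, and none was called. Moxd1, the male-biased gene that rose, read 9.21 and 8.46 in 42Y, against 3.91 and 3.83 in 42WKK (4.97, adjusted p = 0.0373 in limma). It also read 8.17 and 8.99 in 16Y, against 3.77 and 4.15 in 6Y, while group 1 held 5.69 and 9.20. Its call in 42Y against 42WKK was lost when an array of any group but group 1 was left out, at adjusted p from 0.0611 to 0.198. Elovl3, an elongase of fatty acids, read 10.98 and 10.94 in 42Y, against 12.44 and 12.33 in 42WKK (-1.43, SE 0.11, adjusted p = 0.00186 in limma). It read 12.50 and 12.28 in 6Y and 12.10 and 12.22 in 16Y. Its difference of 42Y from 42WKK departed from that of 6Y from 6K (interaction -1.36, adjusted p = 0.0291 in limma). Leaving out 42Y replicate 1, 6Y replicate 1 or any array of 16Y, 42WKK or 6K gave the interaction an adjusted p of 0.0562 to 0.126.

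Hsd3b5, a male-specific steroid enzyme, read 10.18 and 9.84 in 6Y, 8.22 and 8.05 in 16Y, and 9.20 and 8.93 in 42Y. In 16Y against 6Y it was lower, with a difference of -1.87 (SE 0.14, adjusted p = 0.00303 in limma). The 16Y arrays were the lowest of the 12, and 6K read 10.20 and 10.14. In 42Y against 6Y the difference was -0.94 (adjusted p = 0.0195), with adjusted p of 0.0656 and 0.0967 without 42Y replicate 2 or 6Y replicate 1. The list did not move one way. In 16Y against 6Y 3 male-biased genes rose and 2 fell, and in 42Y against 6Y 5 rose and 3 fell. Nox4, an oxidase, read 8.06 and 7.84 in 16Y, against 6.80 and 6.45 in 6Y (1.32, adjusted p = 0.02), and also rose in 42WKK against 6K (1.18, adjusted p = 0.0218). Without either array of 16Y or 6Y replicate 2 the rise in 16Y had an adjusted p of 0.0793 to 0.107, and without either array of 42WKK or 6K that in 42WKK had 0.0566 to 0.158.

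Over the Y-titled arrays against the others, 16 of the 18 male-biased genes lay lower by their means, against 49.8% of all clusters, with a median of -0.28, against 0.0 over all clusters. Elovl3 (-0.56) and Hsd3b5 (-0.69) were called, both at an adjusted p of 0.0289 in limma. Of the arrays, 10 for Elovl3 and 9 for Hsd3b5 ended the call when left out singly, at adjusted p from 0.0508 to 0.125. The exceptions were 42Y replicate 2 and 6Y replicate 1 for both, and 42Y replicate 1 for Hsd3b5. With 2 group means fitted in place of 6, adjusted p was 0.81 for Elovl3 and 0.82 for Hsd3b5. Of the 14 female-biased genes, 12 lay higher by their means, against 50.2% of all clusters, with a median of 0.21, and none was called. Of the 14, 8 had a mean below 4.74, the lowest array median, and Sult3a1 read 1.24 to 1.71. In 16Y against 6Y 2 female-biased genes rose and 1 fell. Cyp2b9, a cytochrome P450, read 5.69 and 5.53 in 16Y, against 4.74 and 3.98 in 6Y (1.25, adjusted p = 0.0397), with 0.0624 to 0.19 without 6Y replicate 2 or any array of 16Y, 42WKK, 6K or group 1. Tox, a nuclear factor, read 6.70 and 7.25 in 16Y, against 5.74 and 6.03 in 6Y (1.09, adjusted p = 0.0468), with 0.0576 to 0.176 whichever of the 12 arrays was left out. Both genes were higher on each 16Y array than on either 6Y array. The one that fell, Abcd2, read 3.41 and 3.62 in 16Y, against 5.53 and 5.30 in 6Y (-1.90, adjusted p = 0.0243), with 0.0842 to 0.12 without any array of these 2 groups.

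Igfbp1 was set beside 12 other genes that respond to insulin or FOXO1, of which 11 were measured. In 42Y against 42WKK none rose and 2 fell, where 1.85% of all clusters were called. The median was -0.49, against 0.02 over all clusters. The list was not split by the direction in which insulin moves each gene. Pdk4, a kinase that fasting induces to spare glucose, read 5.67 and 6.87 in 42Y, against 8.38 and 8.40 in 42WKK (-2.12, adjusted p = 0.0302 in limma). Cited2, a transcriptional cofactor, read 7.09 and 7.21 in 42Y, against 8.16 and 8.22 in 42WKK (-1.04, adjusted p = 0.0253). Both lay lower in 42Y, where Igfbp1 lay higher without being called. For Pdk4 adjusted p was 0.0505 to 0.167 without 42Y replicate 1 or any array of 42WKK or group 1, and for Cited2 0.0522 to 0.158 without any array of 42Y or 42WKK.

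Likeness to other genes was measured as Pearson's r over the 12 arrays, which share 6 groups, among 7658 genes with a mean log2 signal of at least 6. The genes closest to Igf1 were Lyve1 (0.943), Mtmr2 (0.941) and Anapc1 (0.925). Those closest to Igfbp1 were Dnmbp (0.906), Gcnt2 (0.902) and Surf6 (0.893), and those closest to Igfbp2 were Oaf (0.909), Ccdc22 (0.894) and Setd6 (0.856). Those closest to Socs2 were Ralb (0.927), Qars (0.916) and Nek6 (0.912).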

How the data were processed

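The authors deposited log2 values for 12 arrays, 1 per transcript cluster. Per the methods these are robust multichip averages (sketch), and the submitters' processing notes list Affymetrix Expression Console. Genes had not been centred, and array medians ranged from 4.74 to 4.88. An exon array is named in the methods, but the identifiers belong to the mouse gene array. Cluster coordinates are not printed, since their build was not given in the sources used here. Array values carry no read depth, so precision is limited by how many arrays there are.

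Means of the 6 title groups were fitted to these log2 values by lmFit and eBayes of limma 3.58.1 (R 4.3.3, no trend). Adjustment was by Benjamini-Hochberg over 35556 clusters, with a threshold of 0.05. Arrays shared 1 estimate of spread (6 residual degrees of freedom), and 7 comparisons were made. The fit was tested on simulated data. Each gene was represented by the cluster of highest mean among those with exactly 1 symbol. Symbols came from the platform annotation, and 21698 of 21789 matched GRCm38.p6 by identifier.

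The members and lists were chosen with earlier results of these data known. Named genes were all members, up to 4 called genes per list, and the 3 most alike genes for 4 members. The calls described were not always those of smallest p. Left out were the calls of the clock genes Nr1d2 and Bhlhe41 and of the male-biased Keg1. Keg1 was lower in 42Y than in 42WKK (-0.60, adjusted p = 0.0354 in limma). The alternatives were quantile normalization, median centring, a mean log2 filter at 6, a variance trend, 1-symbol clusters, only the arrays compared, no 6K arrays, each array left out, 2 group means, replicate numbers as a block and the analysis of variance that the methods' software runs. The same 8 arrays without the block were added after seeing the data.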

Additional observations from a re-analysis of the deposited data

Results flagged for a closer look

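In each of 22 sets of 6 arrays, the T2D or the control arrays as the design text lists them, the highest and lowest array were compared with the rest by Dixon's ratio. Each set spans 3 title groups, and chance marks about 1 in 20 sets. The ratio marked 3 arrays. Ghr read 10.51 in 6Y replicate 1, above the 5 other T2D arrays, which lay between 10.28 and 10.30. Igfbp1 read 9.20 in 6K replicate 1, below the 5 other control arrays, of which the next was at 10.15. Stat5a read 6.57 in 16Y replicate 1, below the 5 other T2D arrays, of which the next was at 6.78.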

How the results depend on the processing

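Of the 70 pairs of a member and a comparison, 65 stayed on their side of the threshold in every alternative run, and 5 did not. None of the 65 was called. The 5 were all 4 called pairs, each lost in some alternatives, and Igfals in 42Y against 6Y, called in some. Leaving out single arrays gave 0 to 2 members called in 16Y against 6Y, 0 to 1 in 42Y against 6Y and in 42WKK against 6K, and 0 in the other comparisons. With only the arrays compared, 0 were called in 16Y against 6Y, in 42Y against 6Y (Igfbp3 adjusted p = 0.209) and in 42WKK against 6K. Without the 6K arrays 1 was called in 16Y against 6Y, where 194 of 35556 clusters were called. Restricting the fit to 1-symbol clusters, or to clusters with a mean of 6 or more, gave 2 members called in 42Y against 6Y. Igfals was added at adjusted p of 0.0454 and 0.0337 in limma. Calls over all clusters fitted there were 1208 of 21789 and 1329 of 11788, against 652 of 35556 in the main fit. The unadjusted analysis of variance on the 4 arrays marked 1 of 10 members in 42Y against 42WKK, Ghr, and none after adjustment. Of all 35556 clusters it marked 3817, and 0 after adjustment.

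The replicate numbers of 6K, 6Y, 16Y and 42Y did not pair arrays, with correlations of their deviations from -0.036 to 0.055. With the replicate block 0 members were called in 16Y against 6Y and 0 in 42Y against 6Y, and calls over all clusters were 16 and 62. On the same 8 arrays without the block, chosen after seeing the data, 0 and 1 members and 19 and 170 clusters were called. Over all clusters, calls in 42Y against 42WKK were 659, against 52 to 500 with an array left out, 1113 with a variance trend, 1721 among clusters with a mean of 6 or more and 0 with only the arrays compared. The cause of these changes was not tested beyond their construction (fewer clusters or fewer arrays).

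No called pair changed direction, and 20 pairs not called did. With an array left out, the log2 difference ranged in 6Y against 6K from -1.369 to 1.009 for Cish, -0.154 to 0.067 for Ghr, -0.372 to 1.09 for Igfbp1, -1.479 to 0.713 for Socs2 and -0.119 to 0.075 for Stat5b. In 42WKK against 6K it ranged from -2.339 to 0.039 for Cish and -0.241 to 1.221 for Igfbp1. In 16Y against 6Y it ranged from -0.211 to 0.009 for Ghr, -0.128 to 0.186 for Igfbp2, -0.282 to 0.029 for Stat5a and -0.091 to 0.054 for Stat5b. In 42Y against 6Y it ranged from -0.713 to 1.478 for Socs2 and -0.069 to 0.022 for Stat5a. In 42Y against 42WKK it ranged from -0.108 to 0.116 for Igf1, -0.169 to 0.021 for Igfals and -0.258 to 0.022 for Stat5b, and in the interaction from -0.236 to 0.044 for Stat5b. Between Y-titled and other arrays it ranged from -0.209 to 0.224 for Igfbp2, -0.053 to 0.678 for Socs2 and -0.07 to 0.065 for Stat5b. Median centring turned Igf1 in 42Y against 42WKK (-0.022), Igfbp2 in 16Y against 6Y (-0.049) and Stat5b between Y-titled and other arrays (0.001), and quantile normalization turned Stat5a in 42Y against 6Y (0.015) and Stat5b in 16Y against 6Y (0.055).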
